A study of Mus musculus with 12 samples.

Results

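Type I interferon-stimulated genes were followed in adipose tissue macrophages (ATMs) lacking miR-146a and in WT ATMs, on a high fat diet (HFD) and on a normal chow diet (NCD). The genes were 45 that encode known products of the type I interferon response, chosen by name with earlier results of these data known. Each was found once among the 15393 genes of the deposited FPKM table (reads per gene scaled by gene length and by the reads counted in the library). Of the 45, 44 averaged 1 FPKM or more across the 12 libraries and were tested, while Ifi44 averaged less. There were 4 groups of 3 libraries, namely miR-146a-/- mice on HFD, WT mice on HFD, miR-146a-/- mice on NCD and WT mice on NCD, all on a C57BL/6 background. The miR-146a-/- mice carry a germline deletion of the miRNA, so every cell type lacks it and not the macrophages alone. Mice of both genotypes began their diet at 6 weeks of age and stayed on it for 14 weeks, until they were 20 weeks old. The paper gives different makers for the NCD (Envigo) and the HFD (Research Diets) of these mice, so the diets can differ in more than fat. The CD45+ CD11b+ F4/80+ cells sorted from the stromal vascular fraction of fat were pooled from 3 mice for each library, so the spread given here is between pools and not between mice.

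Type I interferons bind a receptor made of Ifnar1 and Ifnar2, and the kinases Jak1 and Tyk2 then activate STAT proteins, among them Stat2. Stat2 and Irf9 are parts of a complex that binds the interferon-stimulated response element (ISRE) in the promoters of many genes, whose products sense viral nucleic acid, block translation or assembly of viruses, and amplify or damp the response. Macrophages, including those of fat, are strong responders to interferon. miR-146a is induced by NF-kB and represses Traf6 and Irak1, adaptors of Toll-like receptor signalling that lie upstream of interferon production in myeloid cells. The mature miRNA that the mutant lacks is shown with its seed (bases 2 to 8) in capitals, from the RefSeq annotation of GRCm38.p6, where it lies at chr11:43374435-43374456 on the minus strand.
mmu-miR-146a-5p: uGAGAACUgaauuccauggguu

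The reads counted to genes numbered 9998868 to 11559282 in a library, and between a median of 46 and a median of 4677.5 reads a library stood behind the FPKM of the 44 members tested. The level of miR-146a itself cannot be read from this table, so the genotype labels were not checked against the deleted gene. The 12 macrophage markers, among them Csf1r, Mertk and C1qa, summed to 13557 to 15816 FPKM in miR-146a-/- HFD and 15582 to 16830 FPKM in WT HFD libraries, and to 14181 to 15999 FPKM in miR-146a-/- NCD and 14648 to 15339 FPKM in WT NCD libraries. One library stood apart: the 12 neutrophil markers, such as S100a8 and Ngp, summed to 19432 FPKM in miR-146a-/- HFD replicate 1, against 546 and 505 FPKM in the other miR-146a-/- HFD libraries and 51.5 to 69.4 FPKM in WT HFD libraries. On NCD they summed to 574 to 1643 FPKM in miR-146a-/- and 110 to 148 FPKM in WT libraries, so neutrophil markers were higher in the mutant on both diets with no overlap. The counts on HFD, and the members past or near the threshold there, are therefore also given without miR-146a-/- HFD replicate 1. The part of neutrophil RNA in these results was not tested.

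On HFD, interferon-stimulated genes stood lower in miR-146a-/- ATMs than in WT ATMs. The log2 fold change of miR-146a-/- against WT was below 0 for 40 of the 44 genes (53.3% of the 12119 genes tested), and its median was -0.32, against -0.02 over all genes tested. Ifit3, which binds viral RNA, was lower by 1.32 on the log2(FPKM + 1) scale. Plscr1, an interferon-induced phospholipid scramblase, was higher by 1.02. The other 42 did not pass the test (limma, adjusted p under 0.05, which 0.627% of all genes passed). At an unadjusted p under 0.05 there were 22 members lower in miR-146a-/- ATMs (10.4% of all genes) and 2 higher, Plscr1 and the ubiquitin ligase Trim25 (7.16%). In 19 members all 3 miR-146a-/- HFD libraries lay below all 3 WT HFD libraries (11.8% of all genes) and in Trim25 and Plscr1 they lay above them (8.51%). Without miR-146a-/- HFD replicate 1 the median was -0.21, with 41 members below 0, and 14 were lower at an unadjusted p under 0.05. In that fit 113 genes passed the adjusted threshold, against 76 with all libraries (limma). The share of all genes at the unadjusted p was not counted there. With miR-146a-/- HFD replicate 1 left out, 20 members were separated downwards, but so were 17.4% of all genes. The paper names interferon gamma and alpha among the gene sets enriched in miR-146a-/- ATMs, citing its lists for both diets together. That result comes from a gene set analysis, which was not repeated here.

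On NCD the members stood the other way. The log2 fold change was above 0 for 43 of the 44 members (54.4% of all genes), Trim25 being the exception, and the median was 0.25, against 0.02 over all genes. None passed the adjusted threshold (0.124% of all genes did, limma), while 1 did with limma voom on the recovered reads, with Irf7 closest at an adjusted p of 0.055. At an unadjusted p under 0.05 there were 17 members higher in miR-146a-/- ATMs (3.8% of all genes), among them Ifit1, Ifit2, Ifit3, Irf7, Oas1a, Oas3, Zbp1 and Cmpk2, and no member was lower. In 28 members the miR-146a-/- NCD libraries all lay above the WT NCD libraries (10.4% of all genes). These libraries are other ones than those on HFD, so the counts on the 2 diets share no samples, although the fit shares 1 estimate of the spread.

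The difference of the genotype effects between the diets (the effect on HFD minus that on NCD) was below 0 for 41 of the 44 members (55.1% of all genes), with a median of -0.51 against -0.03 over all genes. No member passed the adjusted threshold (0% of all genes did, limma), also with limma voom on the recovered reads, and the smallest adjusted p of a member was 0.16. At an unadjusted p under 0.05 there were 34 members with a negative difference (7.74% of all genes) and 1, Trim25, with a positive one (4.48%). In 13 members the miR-146a-/- libraries lay above every WT library on NCD and below every WT library on HFD, which 1.32% of all genes did. These were Ifit1, Ifit2, Ifit3, Irf9, Oas2, Oasl2, Rsad2, Dhx58, Bst2, Parp12, Parp14, Cmpk2 and Herc6. Without miR-146a-/- HFD replicate 1 there were also 13 such members (1.90% of all genes), and 32 members were negative at an unadjusted p under 0.05. The share of all genes negative at that p was not counted for this fit.

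**Figure D1:**
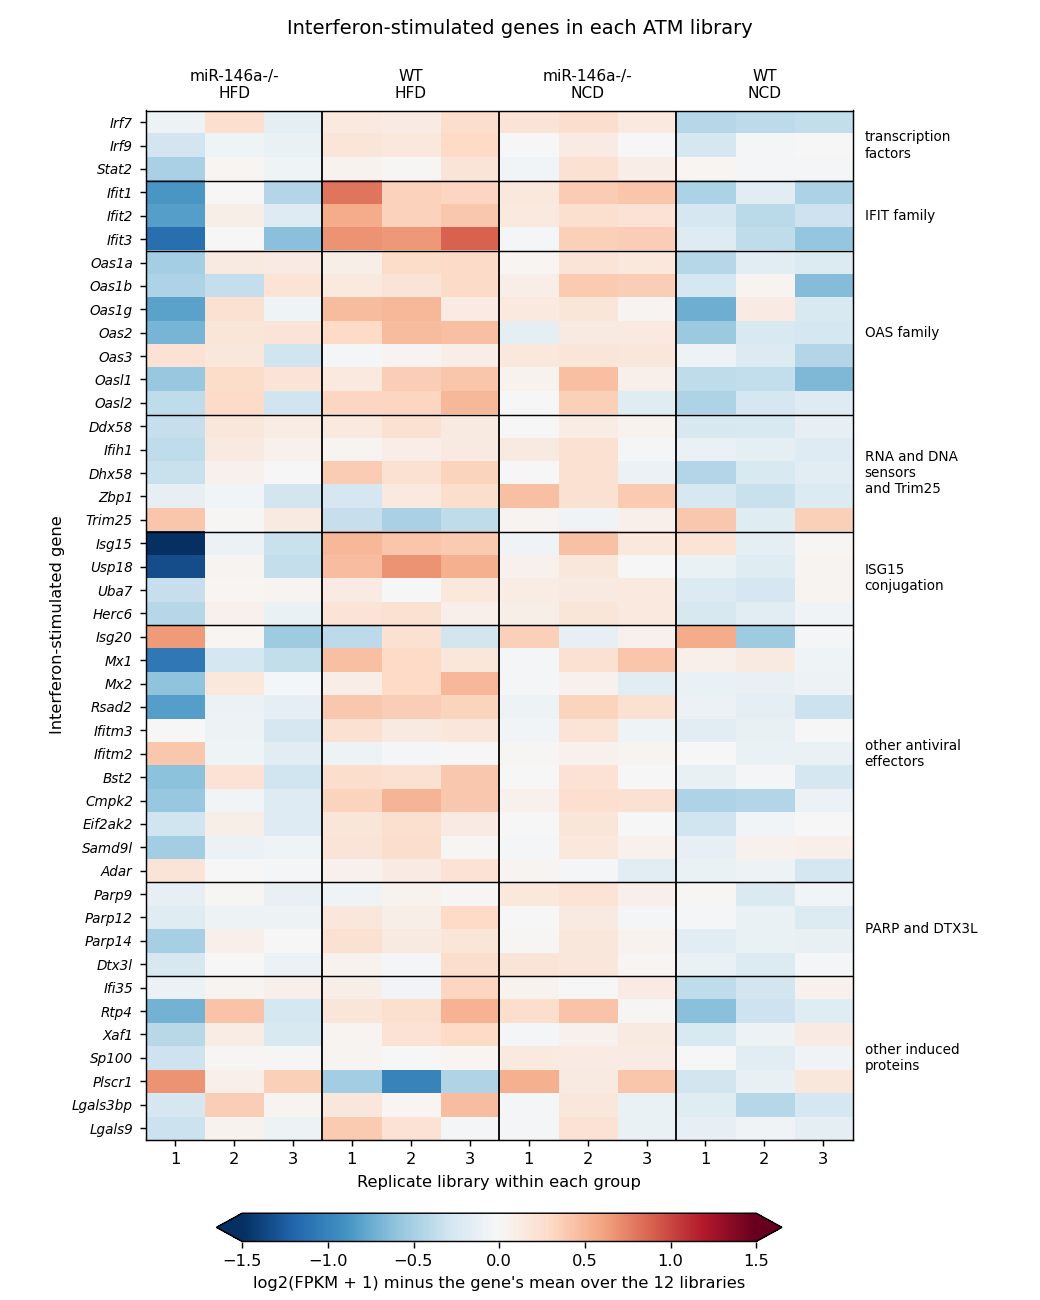
Each row is 1 of the 44 interferon-stimulated genes tested, ordered by role, and each column 1 library, with the colour giving log2(FPKM + 1) minus the mean of that gene over the 12 libraries (red higher, blue lower; colours end at 1.5). WT HFD and miR-146a-/- NCD libraries are mostly red, WT NCD libraries mostly blue, and miR-146a-/- HFD replicate 1 holds the lowest value of 27 of the 44 genes, while Trim25 and Plscr1 are blue in WT HFD libraries.

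**Figure D2:**
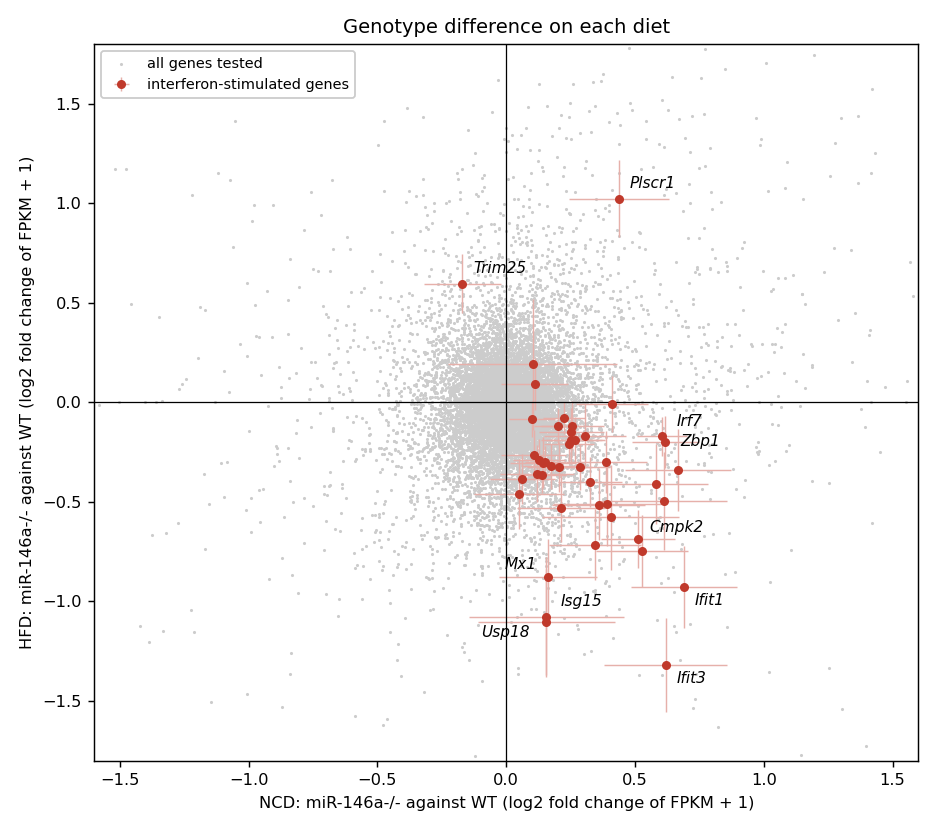
Points give the log2 fold change of miR-146a-/- against WT on NCD (horizontal) and on HFD (vertical) for the 44 interferon-stimulated genes in red, with bars of 1 standard error, and for all genes tested in grey (113 genes lie beyond the axes). The red points sit mostly below and to the right of 0, with 43 above 0 on NCD and 40 below 0 on HFD, and Plscr1 and Trim25 are high on the vertical axis at 1.02 and 0.60.

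The IFIT proteins bind foreign RNA and hold back its translation, and their genes lie together within 99.3 kb of chromosome 19 (GRCm38, positions 34550693 to 34650009). Ifit3 (ENSMUSG00000074896, 34583530 to 34588731) had 5.77, 13.8 and 8.55 FPKM in miR-146a-/- HFD ATMs, against 22.5, 22.2 and 26.2 FPKM in WT HFD ATMs. It had 13.5, 17.9 and 18.2 FPKM in miR-146a-/- NCD ATMs, against 11.9, 10.4 and 8.92 FPKM in WT NCD ATMs. All 3 mutant libraries were thus below the WT range on HFD and above it on NCD, and WT HFD libraries were the highest of the 12. Its log2 fold change was -1.32 (standard error 0.24, adjusted p = 0.046, limma) on HFD and 0.62 (adjusted p = 0.69) on NCD. Without miR-146a-/- HFD replicate 1 Ifit3 was still lower on HFD (log2 fold change -1.05, adjusted p = 0.041, limma), but it did not pass without any other 1 of the 12 libraries bar miR-146a-/- HFD replicate 2 (adjusted p 0.056 to 0.16). Of the 50-base stretches of its transcript, 51.2% also occur in the near-identical Ifit3b, which was not analysed here, so its reads may be shared with that copy.

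Ifit1 had 3.69, 7.56 and 5.33 FPKM in miR-146a-/- HFD ATMs, against 13.9, 9.91 and 9.75 FPKM in WT HFD ATMs, and on NCD it had 8.58, 10.2 and 10.5 FPKM in miR-146a-/- ATMs, against 5.20, 6.69 and 5.16 FPKM in WT ATMs. Ifit2 had 5.90, 11.96 and 9.73 FPKM in miR-146a-/- HFD ATMs, against 16.9, 14.6 and 15.2 FPKM in WT HFD ATMs, and on NCD it had 12.6, 13.4 and 13.2 FPKM in miR-146a-/- ATMs, against 9.25, 8.28 and 8.83 FPKM in WT ATMs. Like Ifit3, both separated the genotypes without overlap on each diet and in opposite directions. For Ifit1 the log2 fold change was -0.93 (adjusted p = 0.073) on HFD and 0.69 (adjusted p = 0.48) on NCD, and for Ifit2 it was -0.75 (adjusted p = 0.089) on HFD and 0.53 (adjusted p = 0.62) on NCD (limma). With miR-146a-/- HFD replicate 1 left out, Ifit1 stood at -0.71 (adjusted p = 0.094) and Ifit2 at -0.49 (adjusted p = 0.051) on HFD (limma).

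The set holds 3 transcription factors. Irf7, which drives the second wave of interferon production and is itself interferon-induced, had 17.1, 17.9 and 16.3 FPKM in miR-146a-/- NCD ATMs, against 10.7, 10.9 and 11.1 FPKM in WT NCD ATMs. On HFD it had 13.8, 17.6 and 13.2 FPKM in miR-146a-/- ATMs, against 16.3, 16.1 and 17.8 FPKM in WT ATMs. The WT NCD libraries were thus the 3 lowest of all 12 for Irf7, while on HFD the genotypes overlapped, with miR-146a-/- HFD replicate 2 inside the WT range. Its log2 fold change was 0.60 (standard error 0.10, adjusted p = 0.055, limma) on NCD, the smallest p of any member there, and -0.17 (adjusted p = 0.38) on HFD. Irf7 (ENSMUSG00000025498) lies on the minus strand of chromosome 7, from 141262705 to 141266481.

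Irf9, the DNA-binding partner of the STAT complex, had 16.2, 19.002 and 18.5 FPKM in miR-146a-/- HFD ATMs, against 22.8, 22.4 and 24.7 FPKM in WT HFD ATMs, and on NCD 19.8, 21.8 and 19.9 FPKM in miR-146a-/- ATMs, against 16.4, 19.5 and 19.8 FPKM in WT ATMs. It separated the genotypes without overlap on both diets, although the nearest values on NCD both round to 19.8 FPKM. Stat2, the STAT that is specific to interferons of types I and III, had 7.44, 11.02 and 10.3 FPKM in miR-146a-/- HFD ATMs, against 11.3, 11.01 and 12.5 FPKM in WT HFD ATMs. On NCD Stat2 had 10.5, 12.9 and 11.6 FPKM in miR-146a-/- ATMs, against 11.04, 10.6 and 10.6 FPKM in WT ATMs, so its groups overlapped on both diets. The log2 fold change of Irf9 was -0.37 (adjusted p = 0.097) on HFD and 0.14 (adjusted p = 0.87) on NCD, and that of Stat2 was -0.27 (adjusted p = 0.31) on HFD and 0.11 (adjusted p = 0.96) on NCD (limma). With miR-146a-/- HFD replicate 1 left out, Irf9 stood at -0.30 on HFD (adjusted p = 0.15, limma).

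Among the sensors of foreign nucleic acid, Dhx58 (LGP2), a helicase that tunes the others, had 8.01, 10.9 and 10.4 FPKM in miR-146a-/- HFD ATMs, against 13.8, 12.3 and 13.3 FPKM in WT HFD ATMs. On NCD it had 10.4, 12.3 and 9.69 FPKM in miR-146a-/- ATMs, against 7.40, 8.68 and 9.21 FPKM in WT ATMs, without overlap on either diet. Zbp1, a sensor of left-handed nucleic acid that can start necroptosis, had 12.6, 10.7 and 12.1 FPKM in miR-146a-/- NCD ATMs, against 7.46, 6.91 and 7.64 FPKM in WT NCD ATMs, and on HFD 8.21, 8.73 and 7.23 FPKM in miR-146a-/- ATMs, against 7.37, 10.1 and 11.02 FPKM in WT ATMs. Zbp1 was separated on NCD, where its log2 fold change was 0.62 (adjusted p = 0.19), and overlapped on HFD, where it was -0.20 (adjusted p = 0.44) (limma). The RNA sensors Ddx58 (RIG-I) and Ifih1 (MDA5) were separated upwards on NCD, with log2 fold changes of 0.25 and 0.25, and overlapped on HFD at -0.19 and -0.15. Without miR-146a-/- HFD replicate 1 the HFD value of Ifih1 was 0.01.

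Trim25, a ubiquitin ligase that acts on RIG-I, was the 1 member below 0 on NCD and was among the 4 above 0 on HFD, with Plscr1, Isg20 and Ifitm2, and it is described in full after its values were seen. It had 26.5, 19.8 and 21.5 FPKM in miR-146a-/- HFD ATMs, against 15.1, 13.6 and 14.8 FPKM in WT HFD ATMs, so every mutant library was above the WT range. On NCD it had 20.2, 18.8 and 20.7 FPKM in miR-146a-/- ATMs, against 26.2, 17.1 and 25.3 FPKM in WT ATMs, which overlapped. For Trim25 the log2 fold change was 0.60 (standard error 0.15, adjusted p = 0.099, limma) on HFD and -0.17 (adjusted p = 0.92) on NCD. Without miR-146a-/- HFD replicate 1 the HFD value was 0.48 (adjusted p = 0.15, limma).

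The oligoadenylate synthetases make the messenger that activates RNase L, and Oas1a, Oas1b, Oas1g, Oas2 and Oas3 lie within 177.2 kb of chromosome 5 (120730332 to 120907521). On NCD the log2 fold changes of all 7 were positive, between 0.36 (Oasl2) and 0.67 (Oasl1), and on HFD all were negative, between -0.58 (Oas1g) and -0.01 (Oas3). None of the 7 passed the adjusted threshold on either diet. Oasl2, an oligoadenylate synthetase-like protein, had 11.3, 18.4 and 11.98 FPKM in miR-146a-/- HFD ATMs, against 18.98, 18.9 and 21.6 FPKM in WT HFD ATMs, and on NCD 14.9, 19.4 and 13.1 FPKM in miR-146a-/- ATMs, against 10.5, 12.4 and 12.98 FPKM in WT ATMs. Oas2 and Oasl2 were the members of the family that separated the genotypes on both diets. The log2 fold change of Oas2 on HFD was -0.51 with all libraries and -0.22 without miR-146a-/- HFD replicate 1, and the nearest values of Oasl2 on HFD were 18.4 FPKM in a miR-146a-/- and 18.9 FPKM in a WT library. Oas1a and Oas1g share 57.6% of the 50-base stretches of Oas1a, so reads may be divided between them. Oas1b is known to carry a premature stop in C57BL/6 mice, and it had 24 to 74 reads in a library.

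Isg15 is a ubiquitin-like protein, Uba7 activates it, Herc6 is its main ligase in mice, and Usp18 removes it and also blocks signalling at the interferon receptor. Usp18 had 3.43, 10.5 and 7.72 FPKM in miR-146a-/- HFD ATMs, against 14.3, 16.8 and 15.1 FPKM in WT HFD ATMs, and on NCD 10.6, 11.5 and 10.1 FPKM in miR-146a-/- ATMs, against 9.43, 8.80 and 10.4 FPKM in WT ATMs. Isg15 had 2.48, 8.35 and 6.87 FPKM in miR-146a-/- HFD ATMs, against 13.02, 12.2 and 12.04 FPKM in WT HFD ATMs, and on NCD 8.60, 12.4 and 10.03 FPKM in miR-146a-/- ATMs, against 10.5, 7.97 and 9.005 FPKM in WT ATMs. Both were separated on HFD and overlapped on NCD, and miR-146a-/- HFD replicate 1 held their lowest value. For Usp18 the log2 fold change on HFD was -1.10 (adjusted p = 0.092), and without that library -0.71 (adjusted p = 0.03, limma), past the threshold. For Isg15 it was -1.08 (adjusted p = 0.13), and without that library -0.64 (adjusted p = 0.071). Herc6 was separated on both diets, with log2 fold changes of -0.32 on HFD and 0.29 on NCD, and Uba7 on NCD, at 0.27.

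Rsad2 (viperin) makes a chain-terminating nucleotide from CTP, and Cmpk2, a mitochondrial nucleotide kinase, lies beside it in opposite orientation within 37.1 kb of chromosome 12 (26442752 to 26479835). Cmpk2 had 4.24, 6.57 and 5.78 FPKM in miR-146a-/- HFD ATMs, against 8.82, 10.04 and 9.32 FPKM in WT HFD ATMs, and on NCD 7.16, 8.27 and 8.10 FPKM in miR-146a-/- ATMs, against 4.62, 4.75 and 6.33 FPKM in WT ATMs. Rsad2 had 4.63, 8.40 and 8.11 FPKM in miR-146a-/- HFD ATMs, against 12.2, 11.9 and 11.5 FPKM in WT HFD ATMs, and on NCD 8.43, 11.5 and 10.7 FPKM in miR-146a-/- ATMs, against 8.39, 7.995 and 7.003 FPKM in WT ATMs. Both were separated on each diet and in opposite directions, although on NCD the nearest Rsad2 values, 8.43 FPKM in a miR-146a-/- and 8.39 FPKM in a WT library, all but touched. The difference of the genotype effects was -1.20 (unadjusted p = 0.00011, adjusted p = 0.16) for Cmpk2, the smallest p of any member, and -1.06 (unadjusted p = 0.0016, adjusted p = 0.2) for Rsad2 (limma). On HFD alone Cmpk2 stood at -0.69 (adjusted p = 0.064) and Rsad2 at -0.71 (adjusted p = 0.1, limma). With miR-146a-/- HFD replicate 1 left out, these were -0.54 (adjusted p = 0.078) and -0.48 (adjusted p = 0.093, limma).

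Among the other antiviral effectors, 9 of 11 stood below 0 on HFD and all 11 stood above 0 on NCD. Mx1, a GTPase that C57BL/6 mice carry in a defective form, had 5.28, 9.94 and 9.21 FPKM in miR-146a-/- HFD ATMs, against 17.04, 15.2 and 13.8 FPKM in WT HFD ATMs, with no overlap, and on NCD 11.998, 14.4 and 16.6 FPKM in miR-146a-/- ATMs, against 12.9, 13.4 and 11.6 FPKM in WT ATMs, with overlap. Its log2 fold change on HFD was -0.87 (adjusted p = 0.07), or -0.62 (adjusted p = 0.053, limma) with miR-146a-/- HFD replicate 1 left out. Bst2 (tetherin), which holds virus particles at the cell surface, had 52.3, 93.8 and 65.2 FPKM in miR-146a-/- HFD ATMs, against 96.9, 94.7 and 107 FPKM in WT HFD ATMs, and on NCD 81.3, 93.6 and 81.1 FPKM in miR-146a-/- ATMs, against 74.4, 78.8 and 67.3 FPKM in WT ATMs. Its nearest values on HFD were 93.8 FPKM in a miR-146a-/- and 94.7 FPKM in a WT library, a gap that is small beside the spread of the mutant group. The most abundant members were Ifitm2 and Ifitm3, membrane proteins that hinder virus entry, with means of 372 ± 32.8 FPKM for Ifitm3 in miR-146a-/- HFD and 454 ± 14.1 FPKM in WT HFD ATMs (SD, n = 3 each). Ifitm3 was lower in every mutant library on HFD, at -0.29 on the log2 scale and -0.34 without miR-146a-/- HFD replicate 1, whereas Ifitm2 was at 0.09 and -0.08.

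Eif2ak2 (PKR), which stops translation when it binds double-stranded RNA, and Samd9l, a restriction factor of poxviruses, were separated downwards on HFD at -0.32 and -0.38 and overlapped on NCD. Adar, the RNA-editing enzyme, and the exonuclease Isg20 overlapped on both diets, with log2 fold changes on HFD of -0.08 and 0.19. Mx2 overlapped on both diets too, at -0.46 on HFD and 0.05 on NCD.

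Parp9 and Dtx3l work as a complex of an ADP-ribosyltransferase and a ubiquitin ligase, and with Parp14 their genes lie within 139.7 kb of chromosome 16 (35832873 to 35972605). Parp12, an ADP-ribosyltransferase that slows translation, had 17.9, 19.2 and 19.2 FPKM in miR-146a-/- HFD ATMs, against 23.2, 21.7 and 25.3 FPKM in WT HFD ATMs, and on NCD 20.5, 22.4 and 20.1 FPKM in miR-146a-/- ATMs, against 19.95, 18.97 and 17.6 FPKM in WT ATMs. Its replicates were close, and the difference of its genotype effects, -0.45, was among the 10 with the smallest p (unadjusted p = 0.0021, adjusted p = 0.21, limma). Parp14 was also separated on both diets, at -0.32 on HFD and 0.21 on NCD, while Parp9 and Dtx3l were separated on NCD, at 0.22 and 0.24, and overlapped on HFD.

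Plscr1 (ENSMUSG00000032369, chromosome 9, 92250056 to 92271975) was higher in miR-146a-/- ATMs than in WT ATMs on HFD. Its log2 fold change of HFD against NCD was 0.002 in miR-146a-/- ATMs and -0.59 in WT ATMs (adjusted p = 0.13 in WT, limma). It had 10.6, 6.70 and 8.36 FPKM in miR-146a-/- HFD ATMs, against 4.10, 2.64 and 4.37 FPKM in WT HFD ATMs, without overlap. On NCD it had 9.63, 7.06 and 8.75 FPKM in miR-146a-/- ATMs, against 5.07, 5.76 and 7.22 FPKM in WT ATMs, where the nearest values, 7.06 and 7.22 FPKM, crossed. The log2 fold change of miR-146a-/- against WT was 1.02 (standard error 0.19, adjusted p = 0.048, limma) on HFD and 0.44 (adjusted p = 0.74) on NCD. The highest value of Plscr1 was in miR-146a-/- HFD replicate 1, without which the HFD value was 0.87 (adjusted p = 0.066, limma). It did not pass without any 1 of the other libraries either, at adjusted p = 0.064 to 0.16, bar miR-146a-/- HFD replicate 2.

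Of the remaining induced proteins, Rtp4, a chaperone of membrane receptors, had 33.9, 38.04 and 28.4 FPKM in miR-146a-/- NCD ATMs, against 17.8, 22.4 and 24.5 FPKM in WT NCD ATMs, and on HFD 16.8, 37.9 and 23.2 FPKM in miR-146a-/- ATMs, against 31.9, 33.1 and 40.7 FPKM in WT ATMs. It was separated on NCD and overlapped on HFD, where the mutant libraries ranged widely. The nuclear body protein Sp100 and the scavenger receptor ligand Lgals3bp were separated upwards on NCD, at 0.20 and 0.31, and overlapped on HFD, while Ifi35, the XIAP-binding Xaf1 and galectin-9 (Lgals9) overlapped on both diets. Ifi44, left out of the tests, lay between 0.32 and 1.49 FPKM, with 22 to 100 reads in a library, and had 0.321, 0.863 and 0.755 FPKM in miR-146a-/- HFD ATMs, against 0.718, 0.918 and 1.03 FPKM in WT HFD ATMs, and on NCD 0.872, 1.49 and 1.21 FPKM in miR-146a-/- ATMs, against 0.530, 0.344 and 0.701 FPKM in WT ATMs. On NCD Ifi44 thus went the way of the group, without overlap. Of the members 6 lie on chromosome 11 with the miR-146a gene, the nearest, Xaf1, 28.9 Mb away from it.

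**Figure D3:**
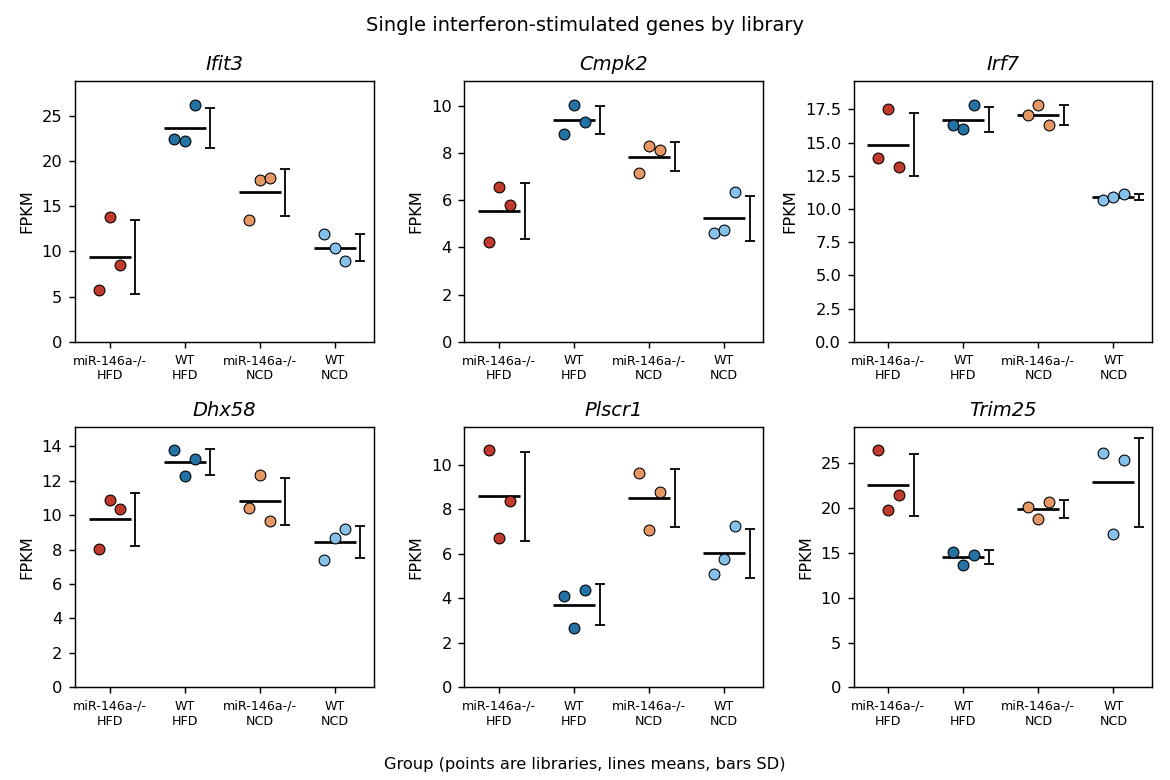
FPKM of 6 interferon-stimulated genes by group, with points for libraries, lines for the mean and bars for the SD (n = 3 libraries in each group; axes start at 0). Ifit3, Cmpk2 and Dhx58 have their highest group mean in WT HFD libraries, with the mutant below on HFD and above on NCD, Irf7 is low in WT NCD libraries alone, and Plscr1 and Trim25 are lowest in WT HFD libraries.

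The diet comparisons use the same libraries as the genotype comparisons, so they are the same pattern seen along the other axis and not separate evidence. In WT ATMs, interferon-stimulated genes were higher on HFD. Of the 44 members 41 had a log2 fold change above 0 (51.0% of all genes), with a median of 0.32 against 0.01 over all genes. Of the 12 macrophage markers 9 were also above 0 and 3 below, with a median of 0.37, and 2 of them passed the adjusted threshold (limma). Ifit3, Irf7, Dhx58 and Cmpk2 rose (limma, adjusted p under 0.05, 2.98% of all genes), by 1.12, 0.57, 0.58 and 0.75 on the log2 scale, with adjusted p = 0.035, 0.014, 0.035 and 0.022, and none fell. Ifit2 stood at an adjusted p of 0.05, just above the threshold before rounding, and Ifit1 at 0.053. At an unadjusted p under 0.05 there were 29 members higher (8.93% of all genes), and in 31 all WT HFD libraries lay above all WT NCD libraries (14.6% of all genes). Trim25, Plscr1 and Isg20 were below 0, at -0.60, -0.59 and -0.14. Without WT NCD replicate 1 or WT HFD replicate 1 no member passed. When miR-146a-/- HFD replicate 1 was left out 19 passed, 18 of them higher and 1, Trim25, lower. In that fit 1185 of the 12119 genes passed, against 361 with all libraries.

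In miR-146a-/- ATMs the diet difference ran the other way, with a median nearer to 0. Of the 44 members 39 had a log2 fold change of HFD against NCD below 0 (57.3% of all genes), with a median of -0.22 against -0.03 over all genes. None passed the adjusted threshold (0.759% of all genes, limma), also with limma voom, and the smallest adjusted p was 0.11, that of Mx1 at -0.78. At an unadjusted p under 0.05 there were 15 members lower on HFD (9.75% of all genes), and in 15 all HFD libraries lay below all NCD libraries (11.7% of all genes). Without miR-146a-/- HFD replicate 1 the median was -0.12, with 36 members below 0 and 9 at an unadjusted p under 0.05. In that fit 198 genes passed the adjusted threshold, against 92 with all libraries (limma). The share of all genes at the unadjusted p was not counted.

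The level of the whole set was summarised in each library as the mean over the 44 members of log2(FPKM + 1), each centred on its own mean over the 12 libraries. The mean was -0.386, 0.058 and -0.110 in miR-146a-/- HFD libraries, against 0.174, 0.180 and 0.231 in WT HFD libraries. On NCD it was 0.074, 0.194 and 0.098 in miR-146a-/- libraries, against -0.189, -0.176 and -0.147 in WT libraries. The groups did not overlap on either diet, and the spread of the miR-146a-/- HFD group (SD 0.224, n = 3) was over 3 times that of any other. Replicate 1 of that group held the lowest value of 27 of the 44 members, and it was also the library with the most neutrophil RNA, while replicates 2 and 3, with a mean of -0.026, still lay below every WT HFD library. As a reference, the same mean over all 12119 genes lay between -0.043 and 0.067 in the 12 libraries. In RNA of pooled sorted cells, fewer cells of a type and less RNA per cell cannot be told apart.

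**Figure D4:**
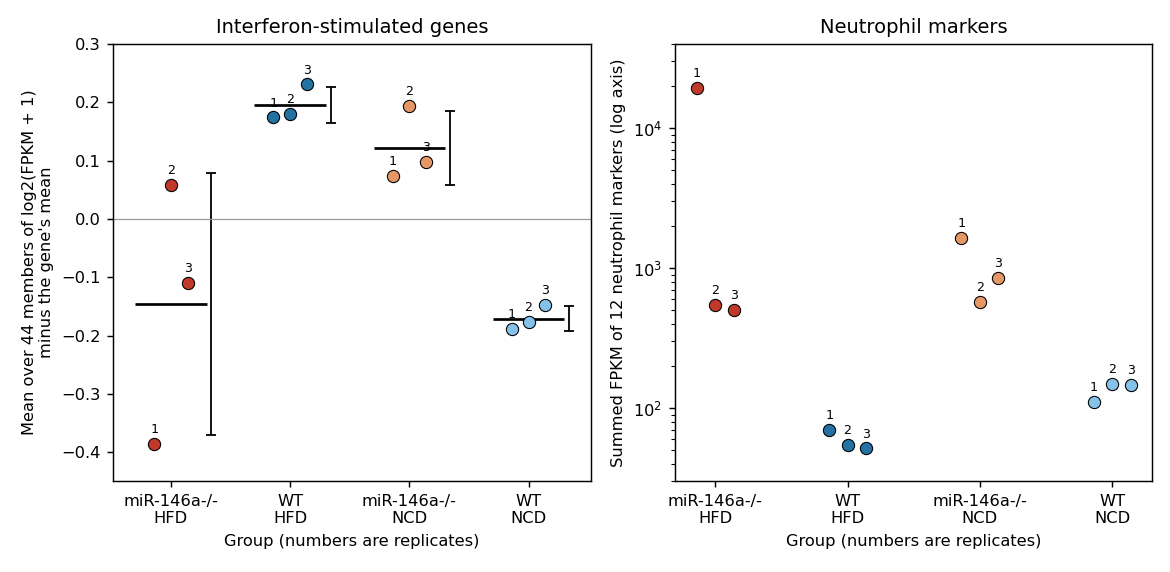
Left, the mean over the 44 interferon-stimulated genes of centred log2(FPKM + 1) in each library, with lines for the group mean and bars for the SD (n = 3 libraries), and right, the summed FPKM of 12 neutrophil markers on a log axis. The 3 miR-146a-/- HFD libraries are below the WT HFD libraries and the 3 miR-146a-/- NCD libraries above the WT NCD libraries on the left, and miR-146a-/- HFD replicate 1, lowest on the left at -0.386, is highest on the right at 19432 FPKM.

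Markers of other cells that make or answer interferon moved in places with these groups. The plasmacytoid dendritic cell, the main source of type I interferon in blood, has 8 of its 10 listed markers in the table, and they summed to 132 to 163 FPKM in miR-146a-/- HFD and 158 to 176 FPKM in WT HFD libraries, and to 151 to 166 FPKM in miR-146a-/- NCD and 123 to 144 FPKM in WT NCD libraries. The genotypes overlapped in this sum on HFD and not on NCD. It contains the member Bst2, and its marker Ccr9 was under 1 FPKM in every library. The 10 monocyte markers summed to 4275 FPKM in miR-146a-/- HFD replicate 1 and to 1621 to 2009 FPKM in the other libraries. The 8 conventional dendritic cell markers summed to 73.8 to 141 FPKM in miR-146a-/- HFD and 216 to 247 FPKM in WT HFD libraries, and to 243 to 293 FPKM in miR-146a-/- NCD and 329 to 354 FPKM in WT NCD libraries, lower in the mutant on both diets. The 8 NK cell markers summed to 7.45 to 65.5 FPKM in miR-146a-/- HFD and 27.5 to 58.1 FPKM in WT HFD libraries, with overlap, and to 94.7 to 149 FPKM in miR-146a-/- NCD and 43.5 to 72.4 FPKM in WT NCD libraries, without overlap. Of these, 7 were tested, and the median log2 fold change of miR-146a-/- against WT was -0.41 on HFD, with 5 below 0, and 1.08 on NCD, with all 7 above 0. The difference of the genotype effects was below 0 for all 7 NK cell markers tested (median -1.15) and all 8 T cell markers (median -0.72). It was below 0 for all 4 B cell markers (median -0.58) too, and for 55.1% of all genes. This direction, that of most members, was also that of all 4 mesothelial (median -0.98) and all 3 eosinophil markers tested (median -0.74). The same held for 7 of 8 fibroblast (median -0.52) and 8 of 12 macrophage markers (median -0.34). It held for 5 of 6 plasmacytoid dendritic cell markers tested (median -0.60), Bst2 among them. Mast cell markers (5 of 6, median -0.26) and endothelial markers (4 of 5, median -0.79) stood below 0 too. Above 0 stood 9 of 10 neutrophil, 9 of 10 monocyte, 5 of 7 conventional dendritic cell, 4 of 7 adipocyte and 3 of 5 erythroid markers. Between the genotypes, 9 of the 12 macrophage markers were below 0 on HFD (median -0.21) and 9 above 0 on NCD (median 0.08). No gene passed the adjusted threshold for this difference (limma). The part of these cells in the result was not tested.

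The genes upstream of the response were described by lists of their own. Of 21 listed interferon genes, Ifnb1 and Ifng were in the table, with 0 to 49 reads of Ifnb1 and 18 to 151 reads of Ifng in a library. Ifnb1 had 0.463, 1.12 and 6.12 FPKM in miR-146a-/- HFD ATMs, against 0, 0.114 and 1.30 FPKM in WT HFD ATMs, and on NCD 0.756, 1.54 and 0.821 FPKM in miR-146a-/- ATMs, against 3.47, 0.621 and 1.33 FPKM in WT ATMs, with overlap on both diets. Of the interferon receptors and their kinases that were tested, none passed between the genotypes on either diet. Ifnar2 stood at 0.11 on HFD and -0.02 on NCD. Ifnar1 stood at 0.06 (adjusted p = 0.66) on HFD and -0.12 (adjusted p = 0.81) on NCD (limma). Jak2, a kinase of the interferon-gamma receptor, fell on HFD against NCD in both genotypes, to 34.6, 29.5 and 31.3 FPKM in miR-146a-/- HFD ATMs, against 56.4, 43.2 and 49.95 FPKM in miR-146a-/- NCD ATMs (log2 fold change -0.63, adjusted p = 0.02, limma), and to 27.1, 27.7 and 29.1 FPKM in WT HFD ATMs, against 55.8, 52.1 and 54.4 FPKM in WT NCD ATMs (log2 fold change -0.93, adjusted p = 0.0013, limma).

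Of the 22 upstream sensors, adaptors and IRFs none passed between the genotypes, with 13 above 0 on HFD and 14 above 0 on NCD. Their log2 fold changes ran from -0.29 to 0.78 on HFD and from -0.20 to 0.31 on NCD. Traf6, a target of miR-146a, had 7.51, 8.94 and 8.75 FPKM in miR-146a-/- HFD ATMs, against 6.29, 5.94 and 6.66 FPKM in WT HFD ATMs, with no overlap (log2 fold change 0.36, adjusted p = 0.089, limma), and on NCD 7.16, 7.69 and 7.41 FPKM in miR-146a-/- ATMs, against 7.35, 6.54 and 6.41 FPKM in WT ATMs, with overlap (0.12, adjusted p = 0.9). Irak1, another target, stood at 0.10 on HFD and 0.24 on NCD. Of 13 negative regulators none passed between the genotypes, and Ptpn2, a phosphatase of Jak1, fell in WT ATMs on HFD (log2 fold change -0.66, adjusted p = 0.0057, limma) but stood at -0.22 in miR-146a-/- ATMs (adjusted p = 0.33), a difference between the genotypes with an unadjusted p of 0.0058 and an adjusted p of 0.24. A further 42 interferon-stimulated genes outside the set were tested, from a list also made with earlier results of these data known. Of these, 30 were below 0 on HFD (53.3% of all genes) and 39 above 0 on NCD (54.4%). Their medians were -0.14 and 0.20, against -0.02 and 0.02 over all genes, and none passed between the genotypes. On HFD these genes ran from -0.71 to 1.18. The lowest of them on HFD was Phf11d, at -0.71 (adjusted p = 0.1), and the highest on NCD was Ly6e, a membrane protein, at 0.57 (adjusted p = 0.22) (limma). Among these Ifi204, a DNA sensor of macrophages, rose in WT ATMs on HFD (0.45, adjusted p = 0.034, limma).

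Promoter motifs were not read in choosing the genes by name. Many known interferon-stimulated genes carry an ISRE, however, so its share among the members is not independent of that choice. The core of the ISRE was searched as GAAANNGAAA on both strands of the RefSeq promoter windows (250 bases before to 50 after the start of each gene, GRCm38.p6), where 35 of the 45 members had a window. It was found in 15 of these 35 (42.9%) and in 3.99% of 27025 genes with a window. The palindromic GAS motif of STAT dimers, TTCNNNGAA, whose match overlaps an ISRE core in Ifitm3 and Bst2, was found in 9 of the 35 (25.7%) and in 9.55% of all genes. A match is a description of the letters and not a measured binding site. Stretches of 5 promoters before the start site are shown in the direction of the gene, with the ISRE core on either strand in capitals, because these genes include the members with the largest changes.
Ifit3: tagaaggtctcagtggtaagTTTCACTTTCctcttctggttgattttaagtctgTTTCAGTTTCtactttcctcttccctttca
Ifit1: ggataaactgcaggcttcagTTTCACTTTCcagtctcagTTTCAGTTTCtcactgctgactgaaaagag
Isg15: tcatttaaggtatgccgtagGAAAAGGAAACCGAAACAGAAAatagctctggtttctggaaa
Rsad2: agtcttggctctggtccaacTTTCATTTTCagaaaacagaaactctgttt
Bst2: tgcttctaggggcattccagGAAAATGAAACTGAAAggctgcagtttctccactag

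The stretches lie at chr19:34583353-34583436 (Ifit3, plus strand), chr19:34640765-34640833 (Ifit1, plus strand), chr4:156200855-156200916 (Isg15, minus strand), chr12:26456543-26456592 (Rsad2, minus strand) and chr8:71537567-71537622 (Bst2, minus strand). Ifit3, Ifit1 and Bst2 hold 2 cores each, Isg15 3 overlapping ones and Rsad2 1. Members with and without the core did not stand far apart in these data. On HFD the median log2 fold change of miR-146a-/- against WT was -0.30 over the 15 members with the core and -0.21 over the 19 tested members whose window lacks it, and on NCD it was 0.25 and 0.26. The largest difference of the genotype effects, that of Ifit3 at -1.94, was in a gene with the core, while Ifit2 and Cmpk2, at -1.27 and -1.20, have a window without it.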

How the data were processed

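RNA was sequenced from ATMs in 12 libraries, each a pool of 3 mice. The deposited table holds FPKM for 15393 genes, which the authors made from 50-cycle single reads of ribosome-depleted, stranded libraries. The submitters' processing notes name Novoalign, DESeq2 and mm10 without versions or roles, and how reads that match several genes were counted is not given in the sources used here. Reads recovered from the steps of the deposited FPKM were whole within 1e-06 for all 184716 values.

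Values were tested as log2(FPKM + 1) with limma 3.58.1 (trend and robust, R 4.3.3) over 12119 genes averaging 1 FPKM or more. Means of 4 groups were fitted, 5 comparisons made and p-values adjusted by Benjamini-Hochberg over all genes. Fold changes of low genes are understated on this scale. The p-values measure the spread between pools of mice. An exact permutation test of 3 against 3 libraries cannot go below 0.1 and was not used. Gene positions are in GRCm38 and promoters in GRCm38.p6 from RefSeq. The members and gene lists were chosen with earlier results of these data known. Full values are given for members past the adjusted threshold in any comparison, for Irf7, Irf9 and Stat2, and for the 10 members with the smallest unadjusted p in the difference of the genotype effects. Those of Trim25, Oasl2, Usp18, Isg15, Mx1, Bst2, Rtp4 and Ifi44 were chosen after their values were seen, and the remaining members are given by role. Alternatives were another pseudocount (0.1), other filters, median-ratio scaling, array quality weights, limma voom, a fit of only the groups compared, a replicate block and each of the 12 libraries left out. One gene of the pathway lists is not reported here. The script was tested on simulated data.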

Additional observations from a re-analysis of the deposited data

Results flagged for a closer look

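In 13 members every miR-146a-/- library lay above the WT libraries on NCD and below them on HFD, so the genotype effect had opposite signs on the 2 diets. Of all genes tested, 1.32% did the same. The difference of the genotype effects (HFD minus NCD, log2 scale) was -1.94 for Ifit3, -1.62 for Ifit1, -1.27 for Ifit2, -1.20 for Cmpk2, -1.06 for Rsad2, -0.90 for Oas2, -0.87 for Oasl2, -0.74 for Bst2, -0.72 for Dhx58, -0.61 for Herc6, -0.53 for Parp14, -0.51 for Irf9 and -0.45 for Parp12. None of these differences passed the adjusted threshold (limma, smallest adjusted p = 0.16), and miR-146a-/- HFD replicate 1, with the most neutrophil marker RNA, enters each of them. Without that library each was smaller in size, and they ran from -1.67 (Ifit3) to -0.35 (Parp14). Ifit1 stood at -1.40, Cmpk2 at -1.05, Ifit2 at -1.01, Rsad2 at -0.82, Oas2 at -0.61 and Bst2 at -0.55.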

How the results depend on the processing

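No member that passed, and no median over the members, changed direction under the alternatives run, but among members that did not pass, Ifitm2 on HFD was 0.09 with all libraries and -0.08 without miR-146a-/- HFD replicate 1, and Ifih1 was -0.15 and 0.01. On NCD the 0 members past the adjusted threshold between the genotypes became 1 with a pseudocount of 0.1, 1 with a mean of at least 5 FPKM, 3 when only the groups compared were fitted, 2 with array quality weights and 1 with limma voom, and 0 to 2 without single replicates. All genes past it numbered 15 in the main fit and 18, 14, 57, 66 and 17 in these alternatives in turn. Without single replicates they numbered 5 to 54. On HFD the 2 members became 0 with no filter, 0 when only the groups compared were fitted, 8 with array quality weights and 5 with limma voom, and 0 to 8 without single replicates, 8 being without miR-146a-/- HFD replicate 2. In both fits with 8 members, 7 were lower and 1 higher. All genes past it numbered 76 in the main fit and 51, 6, 594 and 121 in these alternatives in turn. Without single replicates they numbered 12 to 113. The median on HFD, -0.32, was -0.14 with array quality weights. For the difference of the genotype effects the 0 members became 5 with array quality weights, and 0 to 3 without single replicates, 3 being without miR-146a-/- HFD replicate 2. All genes past it numbered 0 in the main fit, 42 with array quality weights and 0 to 7 without single replicates. The member median of this difference, -0.51, was -0.39 with array quality weights and -0.64 to -0.45 without single replicates. Between the diets, the 0 members in miR-146a-/- ATMs became 1 with array quality weights and 0 to 1 without single replicates. All genes past it there numbered 92 in the main fit, 706 with array quality weights and 17 to 198 without single replicates. The 4 members in WT ATMs became 16 when only the groups compared were fitted, 23 with array quality weights, 7 with limma voom and 7 with the replicate block, and 0 to 19 without single replicates. All genes in WT ATMs numbered 361 in the main fit and 755, 1588, 401 and 336 in these alternatives in turn. Without single replicates they numbered 86 to 1185. Of the 23 members 2 were lower, and Trim25 was the 1 lower member with limma voom and with the replicate block. The cause of these changes was not tested. In the promoters the ISRE core was found in 15 members and the GAS letters in 9.

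With the replicate block 0 members passed between the genotypes on NCD, 3 on HFD and 0 for the difference of their effects. The labels link same-numbered libraries by the number alone. Deviations of same-numbered libraries correlated at -0.05 to 0.12, which with 3 libraries in a group cannot show whether they share a batch. The difference of the genotype effects was not fitted on only the groups compared, since it uses all 4. Depth limits the low members, such as Isg20 with a median of 46 reads in a library.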
